A study of Mus musculus and Rattus norvegicus with 28 samples.

Results

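The 9 matrix proteoglycan genes followed here were Dcn (decorin), Bgn (biglycan), Lum (lumican), Fmod (fibromodulin), Prelp, Ogn (osteoglycin), Aspn (asporin), Omd (osteomodulin) and Vcan (versican). They were taken by gene symbol from the RNA-seq files, as 9 of 55450 mouse genes and 9 of 32623 rat genes, and by accessible regions within 50 kb of their transcript starts, which were 44 of 63444 regions. The mouse samples were left ventricular cells of C57BL/6 mice at embryonic day 18.5 (E18.5) and postnatal days 1 (P1), 3 (P3) and 7 (P7), with 2 RNA-seq and 2 ATAC-seq libraries per time point. ATAC-seq maps chromatin that a transposase can reach, and RNA-seq counts polyadenylated transcripts. The cells were freed with trypsin and collagenase and pre-plated so that faster attaching cells were left behind, without a genotype or a drug. The rat samples were ventricular cardiomyocytes of P1 Sprague Dawley pups, kept in culture and given DMSO, the solvent, or 100 nM trichostatin A (TSA), an inhibitor of histone deacetylases, with 3 RNA-seq libraries per group. All libraries were thus of enriched cells and not of pure cardiomyocytes, and the labels do not say whether libraries of 1 group came from separate litters or cultures, so that p-values measure the spread between libraries.

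Small leucine-rich proteoglycans are secreted core proteins built of leucine-rich repeats, most of them with chondroitin, dermatan or keratan sulfate chains attached. They bind collagen fibrils, set fibril spacing and diameter, and some of them hold growth factors of the TGF beta family in the matrix. Decorin, biglycan and asporin form the first class, lumican, fibromodulin, Prelp and osteomodulin the second, and osteoglycin belongs to the third. Versican is of another family, the hyalectans, which bind hyaluronan and carry many chondroitin sulfate chains, and it is known for its part in the embryonic heart and its valves. In the heart these genes are known mainly from fibroblasts, valve and vessel wall cells.

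The files held 29320000 to 37500000 aligned reads per mouse library and 28210000 to 38490000 per rat library, rounded, as worked out from coverage and FPKM (fragments scaled to transcript length and to library size). The paper reports high purity of the isolated cells by staining for cardiac troponin T, also at P7. Cardiomyocyte markers were present in all 8 mouse libraries but at unequal levels. The summed FPKM of 12 of them was 25934 and 33378 in the E18.5 libraries, 12376 and 20272 in those of P1, 8387 and 7304 in those of P3, and 2040 and 858 in those of P7, and all 12 fell from E18.5 to P7. The summed FPKM of 12 fibroblast markers, none of them a gene followed here, was 413 and 412 in the E18.5 libraries, 974 and 1142 in those of P1, 1348 and 1439 in those of P3, and 2701 and 3507 in those of P7, and 11 of the 12 rose from E18.5 to P7, with none listed at 0 in any library. Summed levels of 10 smooth muscle and pericyte markers went from 503 and 624 at E18.5 to 1737 and 1944 at P7. By the limits given below, 5 of the 10 rose and 2 fell. Acta2 alone made up 1161 and 1326 of the P7 sums. By the same limits 15.4% of all tested genes rose and 12.3% fell from E18.5 to P7. The 6 erythroid markers summed to 29044 and 35391 at E18.5 and to no more than 41.0 in any postnatal library. These marker levels differ between the same time points as every mouse result given here, and their part in the results was not tested. In bulk libraries fewer cells of a type and less RNA per cell cannot be told apart.

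Decorin was high at every time point and rose after birth. Dcn, on chromosome 10 (97479609-97518143, mm10, plus strand), had 85.5 and 84.5 FPKM in the E18.5 libraries, 393 and 412 in those of P1, 489 and 481 in those of P3, and 626 and 617 in those of P7. The libraries of each time point lay within a few percent of each other and no time points overlapped. Mean FPKM was 7.31 times as high at P7 as at E18.5, a log2 fold change of 2.85 ± 0.10 (SE, n = 2 libraries per time point) with a limma adjusted p of 2.9e-06. Fold changes were taken on log2(FPKM + 1), and a gene was called where the adjusted p was under 0.05 and the log2 fold change above 1 in size.

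Biglycan, the closest relative of decorin, had the steepest rise of the 9 genes. Bgn, on chromosome X (73483602-73495933, plus strand), had 65.9 and 65.1 FPKM in the E18.5 libraries, 428 and 374 in those of P1, 643 and 832 in those of P3, and 1065 and 1349.9 in those of P7. Its P7 mean was 18.4 times that of E18.5, with a log2 fold change of 4.17 ± 0.17 (limma adjusted p = 3.7e-06). Bgn went on rising after P1, with a log2 fold change of 1.58 ± 0.17 from P1 to P7 (limma adjusted p = 0.0011), whereas Dcn gained 0.63 ± 0.10 over the same days and stayed under the fold limit. Bgn and Dcn had overlapping levels at P1, Dcn was above Bgn in both E18.5 libraries, and Bgn was above Dcn in all P3 and P7 libraries.

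Asporin, the third gene of the first class and an inhibitor of TGF beta, went the other way around birth. Aspn, on chromosome 13 (49544443-49567565, plus strand), had 6.63 and 7.85 FPKM in the E18.5 libraries, 0.060 and 0.069 in those of P1, 0.41 and 0.40 in those of P3, and 3.27 and 5.05 in those of P7. It fell by 2.95 ± 0.20 on the log2 scale to P1 (limma adjusted p = 5.8e-05) and rose by 2.26 ± 0.20 from P1 to P7 (limma adjusted p = 0.00084). The P1 and P3 libraries lay below all E18.5 and P7 libraries. At P7 Aspn stood at -0.69 ± 0.20 against E18.5 and was not called. The added pseudocount shrinks these changes, as the P1 mean was 0.00885 of the E18.5 mean. Aspn passed the filter for testing, 1 FPKM or more in at least 2 libraries, only through the E18.5 and P7 libraries, where it is high.

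Lumican and Prelp rose and fibromodulin fell. Lum, which guides collagen fibril growth and lies downstream of Dcn on chromosome 10 (97565128-97572703), had 8.32 and 7.86 FPKM in the E18.5 libraries, 21.5 and 14.3 in those of P1, 25.9 and 22.6 in those of P3, and 29.3 and 32.5 in those of P7, with a log2 fold change of 1.81 ± 0.19 to P7 (limma adjusted p = 0.00014). Prelp, which anchors basement membranes to collagen and lies on chromosome 1 (133910304-133921414, minus strand), had 1.48 and 1.63 FPKM in the E18.5 libraries, 4.65 and 2.41 in those of P1, 5.24 and 5.89 in those of P3, and 13.3 and 16.3 in those of P7. Prelp was called at P3 (1.36 ± 0.24, limma adjusted p = 0.0025) and at P7 (2.62 ± 0.24, limma adjusted p = 7.2e-05). At P1 it was not called, but it was without P1 replicate 2 (1.14, limma adjusted p = 0.0068). Fmod, which binds collagen at the same site as lumican and lies on chromosome 1 (134037254-134048277), had 10.3 and 10 FPKM in the E18.5 libraries, 2.52 and 3.33 in those of P1, 3.02 and 3.03 in those of P3, and 4.11 and 4.16 in those of P7. It fell by 1.51 ± 0.16 on the log2 scale to P1 (limma adjusted p = 0.00035) and stood 1.12 lower at P7, where every library was below both E18.5 libraries.

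Osteoglycin rose late. Ogn, on chromosome 13 (49608046-49624501), had 9.67 and 12.7 FPKM in the E18.5 libraries, 6.07 and 11.3 in those of P1, 7.52 and 7.08 in those of P3, and 27.2 and 43.8 in those of P7. The 6 libraries up to P3 overlapped in part and the 2 P7 libraries stood above them, with a log2 fold change of 1.56 ± 0.30 against E18.5 (limma adjusted p = 0.0029) and 2.1 ± 0.30 against P3 (limma adjusted p = 0.012). Omd, which lies between Aspn and Ogn (chromosome 13, 49582462-49592822) and is best known from bone, had 0.30 FPKM or less in every mouse library and was not tested. Aspn, Omd and Ogn all lie within Cenpp, a centromere protein gene on the opposite strand that had 3.53 to 11.8 FPKM, and whether the counting used strand is not given in the sources used here.

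Versican rose from E18.5 to P1 and then held its level within a wide spread. Vcan, on chromosome 13 (89655312-89742509, minus strand), had 7.14 and 5.57 FPKM in the E18.5 libraries, 13.7 and 32.4 in those of P1, 15.9 and 20.5 in those of P3, and 15.4 and 21.8 in those of P7. All 6 postnatal libraries were above both E18.5 libraries, and the postnatal time points overlapped each other. The log2 fold changes against E18.5 were 1.60 ± 0.36 for P1, 1.38 ± 0.36 for P3 and 1.4 ± 0.36 for P7, with limma adjusted p of 0.0089, 0.014 and 0.011. Without E18.5 replicate 2 the call was lost at all 3 time points (limma adjusted p = 0.063, 0.085 and 0.072). It was also lost at P3 without P3 replicate 2 (limma adjusted p = 0.076) and at P7 without P7 replicate 2 (limma adjusted p = 0.066).

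**Figure D1:**
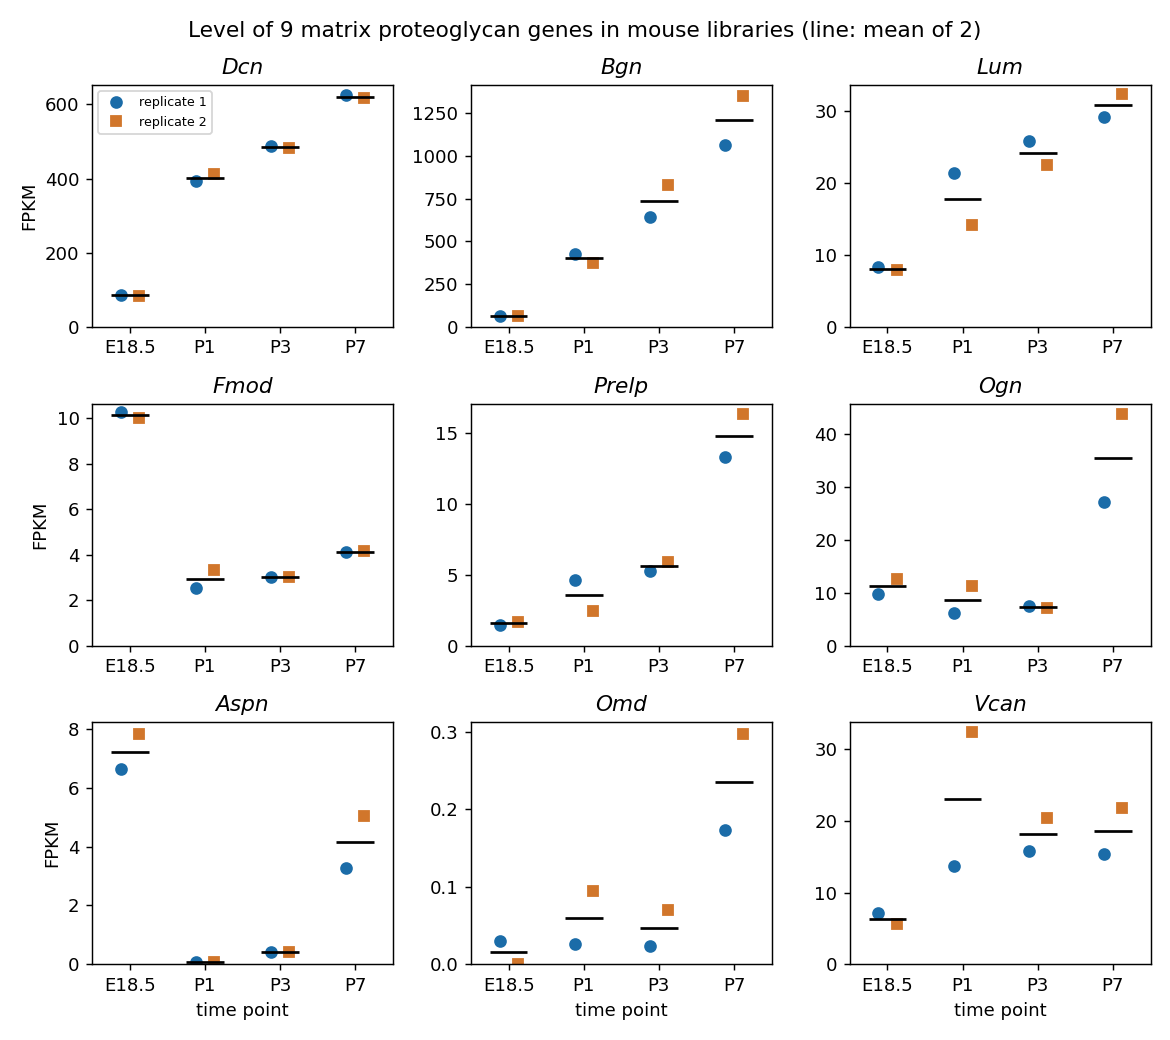
Level of each of the 9 genes (vertical axis, FPKM from 0, 1 scale per gene) at E18.5, P1, P3 and P7 in the mouse libraries; circles and squares are replicates 1 and 2 and the line is their mean. Dcn, Bgn, Lum and Prelp climb from E18.5 to P7, Aspn and Fmod drop at P1, and Ogn stands apart at P7.

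Counted over the 8 tested genes, 4 rose and 2 fell from E18.5 to P1, 5 rose and 2 fell to P3, and 6 rose and 1 fell to P7. The 4 that rose to P1 became 2 without E18.5 replicate 2, where Lum and Vcan were no longer called, 3 without P1 replicate 1 and 5 without P1 replicate 2. Over all 13979 tested genes 16.2% were called for P1 (10.1% higher, 6.06% lower), 21.9% for P3 (13% higher, 8.88% lower) and 27.7% for P7 (15.4% higher, 12.3% lower). The median log2 fold change of the 8 genes was 0.90, 1.37 and 1.68, beside 0.15, 0.16 and 0.14 over all tested genes. From P1 to P7, 4 of the 8 rose (Bgn, Ogn, Prelp and Aspn), where 8.91% of all genes were called (3.45% higher, 5.46% lower), and from P3 to P7, 3 rose (Ogn, Prelp and Aspn), where 3.55% were (1.35% higher, 2.2% lower), and the last count was 0 without P3 replicate 1 or 2 and 1 without P7 replicate 2. None was called from P1 to P3, where 0.0143% of all genes were called by limma, and 4 members (Dcn, Lum, Bgn and Prelp) had an unadjusted p under 0.05, as did 11.3% of all genes. The comparisons with E18.5 share its 2 libraries. With median-of-ratios scaling in place of FPKM alone, all genes shifted by -0.18, -0.19 and -0.16 at P1, P3 and P7 in the median, and the changes named here keep their direction, with Lum at P1 dropping to 0.84 and out of the call, as it also did without P1 replicate 1 (0.75) or E18.5 replicate 2 (0.99).

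**Figure D2:**
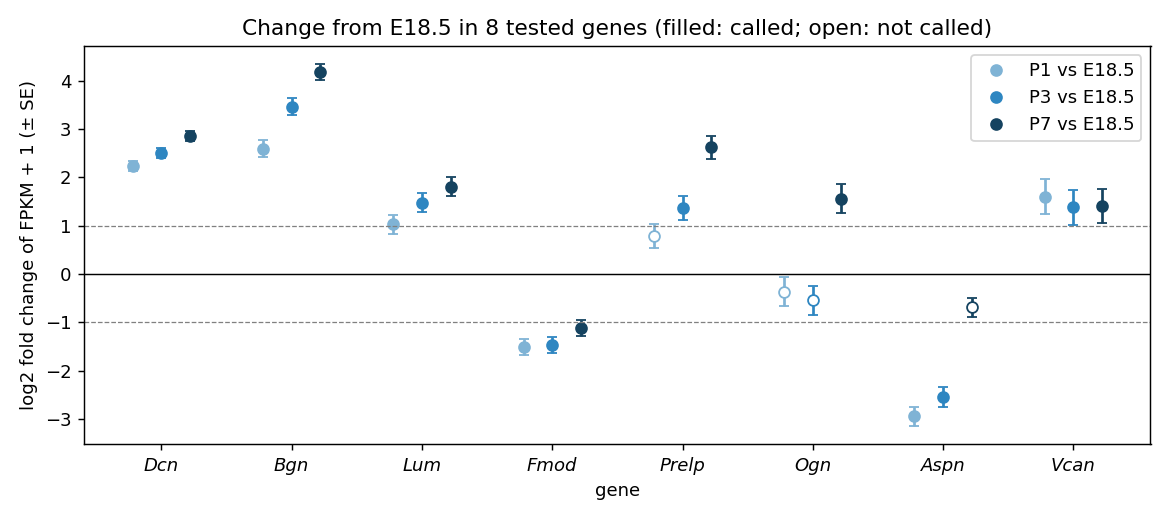
Log2 fold change of FPKM + 1 against E18.5 (vertical axis, bars ± SE from the fit) for the 8 tested genes at P1, P3 and P7; filled points were called, open points were not, and dashed lines mark the limit of 1. Bgn reaches 4.17 at P7 while Aspn and Fmod lie below 0 at all 3 time points.

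The order of the levels changed with age. At E18.5 the means ran Dcn, Bgn, Ogn, Fmod, Lum, Aspn, Vcan, Prelp and Omd, and the libraries of Ogn and Fmod overlapped, as did those of Aspn and Vcan. At P1 the libraries of Dcn and Bgn, of Vcan and Lum, of Prelp and Fmod, and of Aspn and Omd overlapped. At P3 no neighbours in the order overlapped, with Bgn first, then Dcn, Lum, Vcan, Ogn, Prelp, Fmod, Aspn and Omd. At P7 Ogn had moved up next to Dcn, overlapping with Lum, Vcan overlapped with Prelp, and Aspn with Fmod. These levels are per length and compare between genes as FPKM.

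The genes whose log2 levels were most like those of Dcn over the 8 mouse libraries, among tested genes other than the 9, were Cab39l, Galnt10, Chst12, Lgals3bp and Nxn, with Pearson's r from 0.997 to 0.999. Chst12, a chondroitin sulfotransferase, had a mean of 1.25 FPKM at E18.5 and then 16.9, 22.7 and 27.6 FPKM. Galnt10, which starts mucin-type glycosylation, went from 2.3 to 25.8 FPKM. For Vcan the leading genes were Nynrin, Gpr173, Casc4, Txnl4b and Zfp229, with r from 0.978 to 0.991. The libraries share time point, makeup and normalization, so these values describe likeness of pattern only.

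Of 20 tested enzymes that make chondroitin and dermatan sulfate, 12 were called higher and none lower from E18.5 to P7, beside 15.4% higher and 12.3% lower over all tested genes, with a median log2 fold change of 1.16. Chst12 rose by 3.67 ± 0.14 on the log2 scale, from 1.25 to 27.6 FPKM in the mean (limma adjusted p = 2.9e-06). Dse, the epimerase that turns chondroitin into dermatan sulfate, rose from 3.51 ± 0.17 to 21.5 ± 2.6 FPKM (SD, n = 2). Chst14, which sulfates dermatan, rose from 3.37 to 20.7 FPKM, and the chondroitin sulfotransferase Chst11 from 2.93 to 16.7. The enzymes that start the linker chain, Xylt1 and Xylt2, had log2 fold changes of 0.49 ± 0.25 and 0.25 ± 0.15 and were not called. At P1 and P3, 7 and 8 of the 20 were already called higher.

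Of 19 collagens and fibril proteins that the small proteoglycans bind, 18 were called higher at P7, 12 at P1 and 13 at P3. Over all tested genes 15.4%, 10.1% and 13% were called higher at these ages. The median log2 fold change of the 19 was 2.59 at P7. The cross-linking enzymes Loxl1 and Lox rose by 4.59 ± 0.17 and 4.52 ± 0.17, to 244 ± 21 and 144 ± 26 FPKM (SD, n = 2). Col1a1 and Col5a2, which form and seed the main fibrils, rose by 3.54 and 3.5 on the log2 scale. The member not called was Fbln1, at 0.88 ± 0.16. Col1a1, Col1a2, Col3a1 and Fbln2 are also in the fibroblast marker list.

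Of 14 tested proteases and inhibitors that cut or spare proteoglycans, 8 were called higher and none lower at P7. Over all tested genes 15.4% were higher and 12.3% lower. Mmp3, stromelysin, which cuts proteoglycan core proteins, rose from a mean of 0.11 to 498 FPKM, a log2 fold change of 8.79 ± 0.23 (limma adjusted p = 2.6e-06). It passed the filter of 1 FPKM only through postnatal libraries. Timp1, an inhibitor of these enzymes, rose by 4.37 ± 0.17 and the versicanase Adamts5 by 2.73 ± 0.19. Mmp14, a membrane-bound collagenase, rose by 2.67 ± 0.15. Adamts1, another versicanase, stood at -0.65 ± 0.12 and was not called.

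In the hyaluronan system, to which versican binds, 4 of 10 tested genes rose and 1 fell at P7. Over all tested genes 15.4% rose and 12.3% fell, so the 1 that fell is near that share. The synthase Has2 rose from 0.78 to 6.22 FPKM and Has1 fell from 7.06 to 0.79. Cemip, which takes part in breaking down hyaluronan, rose by 3.79 ± 0.18 on the log2 scale, and Tnfaip6, which modifies it, by 1.67 ± 0.15. Aggrecan (Acan), the cartilage relative of versican, was at 1.67 FPKM at P7 and not called. Cell surface and basement membrane proteoglycans were split, with 5 of 16 higher and 5 lower and a median of 0.26. The shares over all tested genes are the same 15.4% and 12.3%. Sdc3, Sdc4 and Sdc1, syndecans that carry heparan sulfate, rose by 3.26, 2.67 and 2.19 on the log2 scale, and Srgn, serglycin of blood cell granules, fell by 2.14. Hspg2, perlecan of basement membranes, stood at 0.39 ± 0.21.

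Among the growth factors that decorin, biglycan and asporin bind, Tgfb3 rose by 2.19 ± 0.14 and Bmp4 by 1.56 ± 0.29, Bmp2 fell by 1.18 ± 0.18, and Tgfb1 (0.95 ± 0.21) and Tgfb2 (0.23 ± 0.16) were not called. Beside this list and the next, 15.4% of all tested genes were called higher and 12.3% lower from E18.5 to P7. Of 10 other small leucine-rich proteoglycans, 3 passed the filter of 1 FPKM in 2 libraries, and Tsku (tsukushi) alone was called at P7, rising from 3.51 ± 0.06 to 48.0 ± 5.95 FPKM (SD, n = 2). Ecm2, which neighbours Aspn on chromosome 13, had a mean of 1.37 FPKM at E18.5 and 1.05 at P7. Kera and Epyc, the neighbours of Lum, and Optc, the neighbour of Prelp, did not pass the filter.

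Versican is spliced around a pair of long exons that carry the chondroitin sulfate attachment sites, and transcripts with both, with the β exon alone, with the α exon alone or with neither are called V0, V1, V2 and V3. The α exon of the mouse gene (chromosome 13, 89702918-89705797, 2880 bases) had a summed coverage of 0.89 and 1.76 reads per base in the E18.5 libraries, 2.52 and 2.80 in those of P1, 4.18 and 3.11 in those of P3, and 3.12 and 3.44 in those of P7. The β exon (89688285-89693501, 5217 bases) had 21.2 and 18.8 in the E18.5 libraries, 63.5 and 121 in those of P1, 68.5 and 83.7 in those of P3, and 62.1 and 98.3 in those of P7. The α exon thus stood at 2.32% to 9.39% of the β exon. The share was 4.20% and 9.39% in the E18.5 libraries and 3.97% and 2.32% in those of P1, which did not overlap, and every other pair of time points overlapped. No test was run on it in mouse. StringTie nevertheless gave 42.2% to 61.7% of Vcan FPKM to the transcript with both exons and 0.85% to 3.05% to the one with α alone, so transcript shares and exon coverage did not match.

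Coverage along the gene was uneven. An exon 5′ of the α exon (89721772-89721946) had 1.00 and 1.67 reads per base at E18.5 and 14.6 to 33.2 in the postnatal libraries, while an exon near the 3′ end (89661917-89662061) had 114 and 113 at E18.5 and 278 to 539 after birth. The E18.5 libraries were below all postnatal ones at these exons. The gap varied between exons, and one further 5′ (89731459-89731534) had 8.96 and 8.93 at E18.5 and 21.2 to 31.2 in the postnatal libraries. Over long transcripts of all genes the median ratio of coverage in the 5′ part to that in the 3′ part was 0.354 to 0.399 in the mouse libraries and 0.808 to 0.901 in the rat libraries, so the mouse libraries were weighted to the 3′ end at every age. FPKM of the 12427-base Vcan transcript is an average over this slope.

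**Figure D3:**
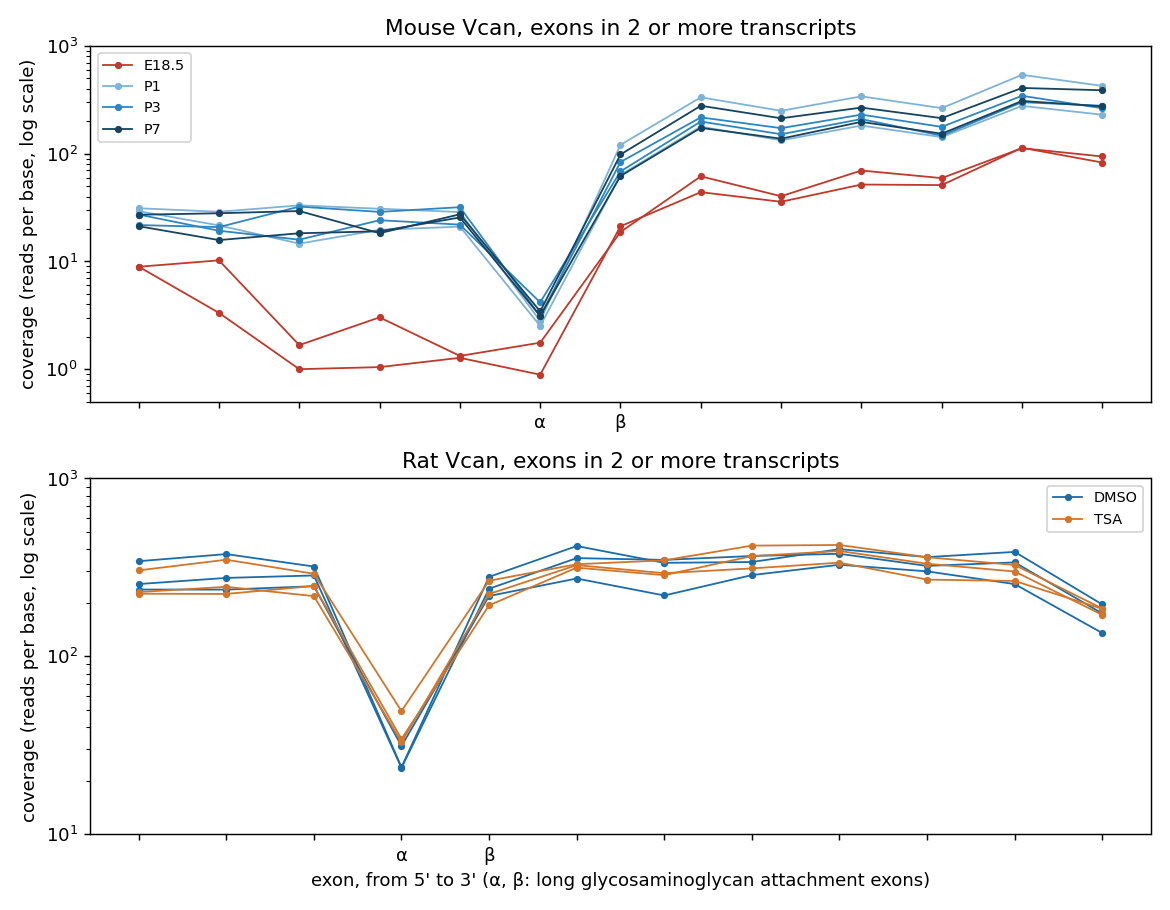
Summed coverage (vertical axis, reads per base, log scale) of Vcan exons that occur in 2 or more transcripts, from 5′ to 3′, in mouse (top, 8 libraries) and rat (bottom, 6 libraries), with 1 line per library. Coverage dips at the α exon in the postnatal mouse libraries and all rat libraries; in mouse the exons 5′ of it lie far below those at the 3′ end, and in rat the TSA lines are higher at the α exon.

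Decorin has a pair of main transcripts with separate first exons. The first exon at the upstream start (chromosome 10, 97479609) had a coverage of 222 and 174 reads per base in the E18.5 libraries, 1335 and 1041 in those of P1, 1449 and 1412 in those of P3, and 1633 and 1985 in those of P7. The first exon at the downstream start (97482367) had 3.77 and 3.15 in the E18.5 libraries, 133 and 118 in those of P1, 132 and 109 in those of P3, and 213 and 199 in those of P7. Both rose after birth with no overlap between E18.5 and later libraries, the downstream exon from a level near 0. As with Vcan, the share of Dcn FPKM that StringTie gave to the downstream transcript, 26.7% and 37.9% at E18.5 and 25.4% to 39.7% later, did not follow the coverage of its first exon.

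In cultured rat cells none of the 8 tested genes was called by limma between TSA and DMSO, and 2 (Bgn and Prelp) had an unadjusted p under 0.05, as did 19.8% of all tested genes. Over all 13625 tested rat genes 2.13% were called (1.81% higher, 0.316% lower), or 2.49% with the replicate number as a block. Bgn had 1186, 1378 and 1432 FPKM with DMSO and 1108, 1051 and 856 with TSA, without overlap. Its log2 fold change was -0.41 ± 0.14 (SE, n = 3; limma adjusted p = 0.18), and it was lower with TSA in all 3 replicate numbers, by 0.10, 0.39 and 0.74 in size. With the replicate number as a block Bgn had -0.41 ± 0.15 (limma adjusted p = 0.18). The exact permutation test, two-sided, used all splits and not the pairing of replicate numbers. It gave 0.1, the smallest p that this unpaired test allows for 3 against 3 libraries.

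Fibromodulin and osteoglycin were higher with TSA within each replicate number. Fmod had 36.3, 38.1 and 13.8 FPKM with DMSO and 65.3, 52.2 and 36.9 with TSA, and the third library of each group was the lowest. The groups overlapped in that TSA replicate 3 lay under DMSO replicate 2. Its log2 fold change was 0.88 ± 0.40 (limma adjusted p = 0.29), and with the replicate number as a block 0.88 ± 0.18 (limma adjusted p = 0.068). Ogn had 24.6 and 22.5 FPKM in DMSO replicates 1 and 2 and was listed at 0 in replicate 3, and had 58.6, 50.6 and 7.09 with TSA. A value of 0 can be a failed estimate, as 3 of 9072 genes at 5 FPKM or more in the other 5 libraries were listed at 0 in that library, and 3 to 7 genes in each of the others. With the replicate block Ogn had a limma adjusted p of 0.075.

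Replicate 3 of each rat group stood apart for other genes too. Dcn had 186, 178 and 89.8 FPKM with DMSO and 203, 184 and 144 with TSA, and Lum 138, 155 and 78.3 with DMSO and 156, 138 and 90.8 with TSA, with the third library lowest in both groups. The summed FPKM of 11 fibroblast markers was 6206, 6768 and 6841 with DMSO and 5768, 5511 and 3449 with TSA. That of 10 smooth muscle and pericyte markers was 1052, 964 and 2541 and then 723, 730 and 1687. For 10 cardiomyocyte markers it was 10900 to 14815 and 10389 to 21379. For 9 macrophage markers it was 1020, 1039 and 492 with DMSO and 559, 480 and 425 with TSA. The part of these marker levels in the differences was not tested. In a fit without the third libraries, chosen after the data were seen, Ogn was called (1.18, limma adjusted p = 0.0033), and Prelp, Aspn and Fmod had adjusted p of 0.011, 0.031 and 0.020 with log2 fold changes of 0.61, 0.80 and 0.64, under the fold limit. In that fit 4.03% of all tested genes were called, and 18.6% had an adjusted p under 0.05 at any fold. Dcn, Lum and Vcan were at 0.083, 0.0034 and -0.038 there.

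Prelp had 16.2, 18.7 and 20.9 FPKM with DMSO and 27.2, 27.2 and 19.8 with TSA. Aspn had 15.3, 10.9 and 19.4 with DMSO and 24.9, 21.6 and 15.5 with TSA, and Vcan 69.8, 75.2 and 54.8 with DMSO and 69.6, 71.5 and 48.8 with TSA. The groups overlapped for these genes, and Omd, at 0.35 to 1.04 FPKM, was not tested. Of the partner lists in rat, none of 17 collagen and fibril genes, 21 sulfate chain enzymes, 13 proteases or 5 growth factors was called. Over all tested rat genes 2.13% were called, a share at which lists of these lengths would hold few calls or none. The link protein Hapln4 was called higher, from 0.07 ± 0.03 to 3.98 ± 1.46 FPKM (SD, n = 3). It passed the filter of 1 FPKM in 3 libraries only through the TSA libraries, where it is high. Also called higher were Srgn (1.24 ± 0.24), Spock1 (1.15 ± 0.16), Spock2 (1.03 ± 0.12) and Gpc2 (1.01 ± 0.16), the last of which was not called with median-of-ratios scaling.

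In rat the versican α exon was covered more, relative to the β exon, in each TSA library than in any DMSO library. This comparison was not among the planned ones. Coverage of the α exon (chromosome 2, 18544063-18546960) was 23.6, 23.8 and 31.3 reads per base with DMSO and 33.0, 49.2 and 34.3 with TSA. Relative to the longer β exon (18525795-18528935) it was 9.84%, 8.51% and 14.3% with DMSO and 14.7%, 18.5% and 17.7% with TSA. This annotated rat β exon has 3141 bases, against 5217 in mouse. A separate exon of 2067 bases (18529137-18531203) is listed next to it on the 5′ side and was left out of the β coverage. The groups did not overlap, with means of 10.9% ± 3.1 and 17.0% ± 2.0 (SD, n = 3), though DMSO replicate 3 and TSA replicate 1 lay close. The exact permutation p was 0.1, the smallest that this test can give, and the test did not use the pairing of replicate numbers.

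**Figure D4:**
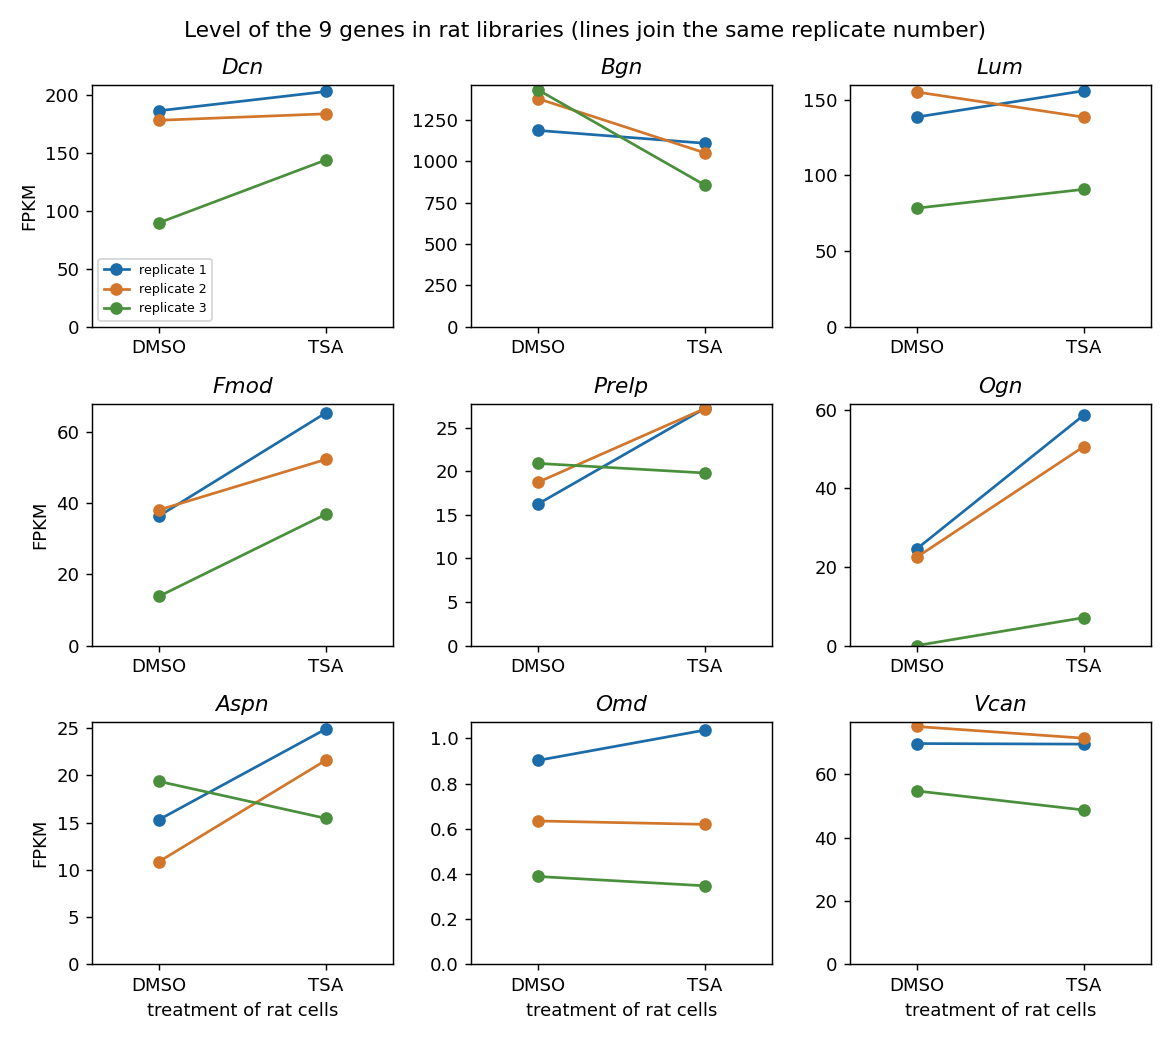
Level of each gene (vertical axis, FPKM from 0, 1 scale per gene) in rat cells given DMSO or TSA; each line joins the libraries of 1 replicate number. Bgn falls with TSA on all 3 lines, Fmod and Ogn rise on all 3, and replicate 3 lies lowest for Dcn, Lum, Fmod and Ogn.

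Chromatin near the 9 genes was described with the peak lists of the 8 ATAC-seq libraries, which held 13149 and 14910 peaks in the E18.5 libraries, 29281 and 19753 in those of P1, 95257 and 52040 in those of P3, and 49113 and 35898 in those of P7. The lists thus differ in length between libraries, and the part of list length in the counts was not tested. Within 2.5 kb of a transcript start, a peak in both libraries was found for 0 of the 9 genes at E18.5, 1 at P1 (Vcan), 6 at P3 (Dcn, Bgn, Ogn, Aspn, Omd and Vcan) and 3 at P7 (Dcn, Bgn and Vcan). The share of all 21951 protein-coding genes with such a peak was 37.1%, 27.1%, 62.7% and 57.3%. With the 13149 top peaks of each list, these counts were 0, 1, 1 and 1.

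The Dcn start (-38 bases, mid-region) had a peak in both P3 and both P7 libraries, with fold enrichments over background of 6.98 and 6.96 at P3 and 4.32 and 3.37 at P7, and none at E18.5 or P1. Dcn was already at 393 FPKM or more at P1. The paper names Dcn among genes that cardiomyocytes do not express, with promoters closed in its cardiomyocyte profiles. The levels and peaks given here differ from that, and the reason was not tested. Ogn had peaks 168 bases before its start in both P3 libraries and P7 replicate 1, but none in P7 replicate 2. The Bgn start had peaks at P3 only (2.96 and 4.07), and its P7 promoter peaks lay beyond the gene's end, near the start of a short downstream transcript. Lum had no promoter peak in any library, and its nearest region in 2 or more libraries lay at -48374 bases from its start, inside Dcn. Prelp also had none, and Fmod had them in P3 replicate 1 alone.

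The 44 regions near the 9 genes changed in shares close to those of all regions. From E18.5, 3 (6.82%) were gained at P1, 28 (63.6%) at P3 and 11 (25%) at P7, where gained means a peak in both later libraries and in neither E18.5 library, and none was lost. Over all regions 6.17%, 55.9% and 23.4% were gained and 1.47%, 0.186% and 0.158% lost. Of the 44, 11 had peaks in the P3 libraries alone. Of these regions 5 had a peak in all 8 libraries, and 3 of these lay within 100 bases of the start of another coding gene, Haus7 near Bgn, Btg2 near Fmod and Nol8 near Ogn. The other 2 were 23662 bases downstream of the Fmod start and 40444 bases upstream of the Prelp start.

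Only the Bgn region 6789 bases upstream of its start was gained at P1, P3 and P7 alike among the 44, the other 2 gained at P1, in an intron of Dcn and upstream of Fmod, having no peak at P3 or P7. Its fold enrichment was 4.88 and 4.66 in the P1 lists, 9.97 and 11.8 in those of P3, and 6.45 and 4.50 in those of P7, and it lies outside any coding gene. A region 5261 bases downstream of the Aspn start, in an intron, had peaks at P3 (11.7 and 8.73) and P7 (5.84 and 4.09). It was the Aspn region with the highest folds. At these ages every RNA-seq library had less Aspn than both E18.5 libraries, though the change was not called at P7. For Vcan, a region 879 bases from a start had peaks in all but E18.5 replicate 2, and the main start had peaks at P3 and P7.

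**Figure D5:**
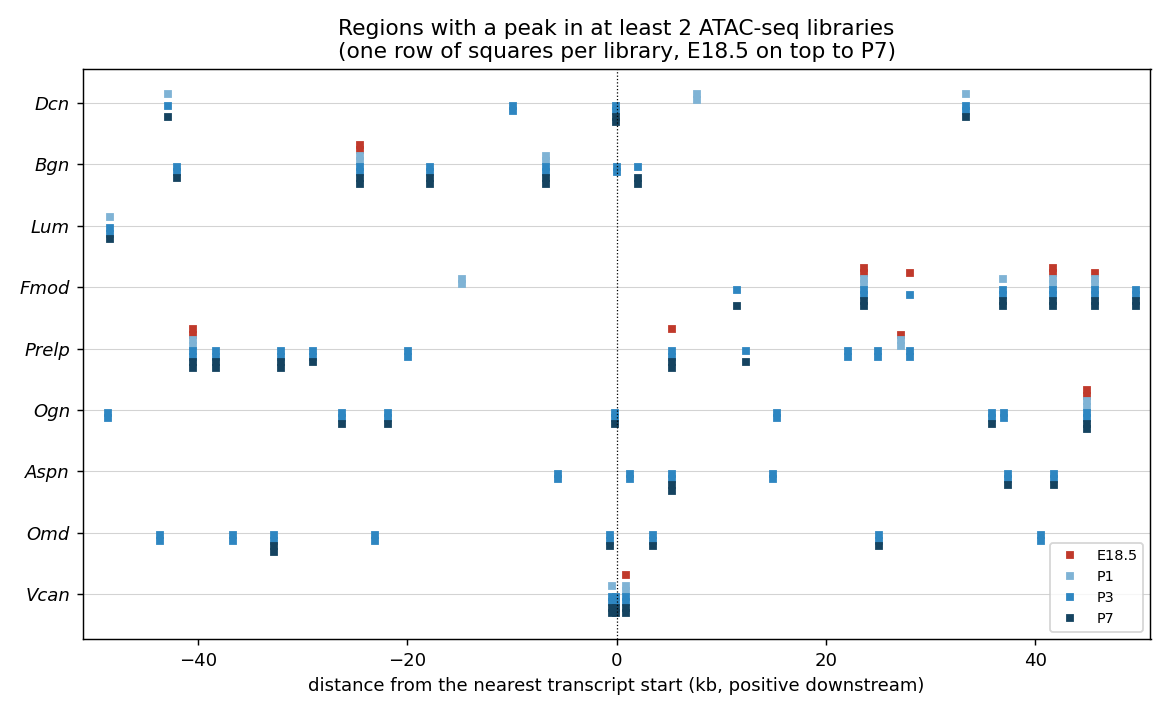
Distance of each region from the nearest transcript start (horizontal axis, kb, positive downstream) for the 9 genes, with 1 row of squares per ATAC-seq library in which the region has a peak, from E18.5 on top to P7. Most squares belong to P3 and P7, and columns with all 8 libraries are seen for Bgn, Fmod, Prelp and Ogn.

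The sequences of 3 of these sites are given because the descriptions turn on them, the gained Bgn region, the Aspn intron region and the Ogn promoter. The first and second are the middle 300 bases of the regions on the plus strand of mm10 (GRCm38.p6), and the third is from RefSeq's table for the same build, from 250 bases before the start to 50 after it, which held 7 of the 9 genes. Capitals mark TGAGTCA or its reverse complement TGACTCA, the AP1 motif, or TATAAA on either strand.
Bgn, chrX:73476663-73476962: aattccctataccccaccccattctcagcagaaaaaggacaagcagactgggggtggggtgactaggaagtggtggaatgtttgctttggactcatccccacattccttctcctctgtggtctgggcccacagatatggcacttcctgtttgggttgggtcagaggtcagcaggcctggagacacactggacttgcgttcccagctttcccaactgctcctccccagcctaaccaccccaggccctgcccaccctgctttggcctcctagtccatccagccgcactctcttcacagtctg
Aspn, chr13:49549598-49549897: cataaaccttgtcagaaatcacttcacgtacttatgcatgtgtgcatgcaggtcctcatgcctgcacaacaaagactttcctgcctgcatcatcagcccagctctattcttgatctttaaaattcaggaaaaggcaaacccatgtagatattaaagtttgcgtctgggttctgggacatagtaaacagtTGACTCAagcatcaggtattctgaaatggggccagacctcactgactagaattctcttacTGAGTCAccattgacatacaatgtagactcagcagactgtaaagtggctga
Ogn, chr13:49607765-49608064: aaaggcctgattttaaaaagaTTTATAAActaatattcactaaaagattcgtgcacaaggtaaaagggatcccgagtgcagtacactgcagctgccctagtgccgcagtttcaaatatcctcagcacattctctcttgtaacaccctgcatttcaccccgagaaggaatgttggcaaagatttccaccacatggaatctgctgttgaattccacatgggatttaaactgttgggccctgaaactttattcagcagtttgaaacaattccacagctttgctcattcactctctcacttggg

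The AP1 motif was found in 8 of the 44 regions (18.2%) when both strands of the middle 300 bases were searched, and in 20.2% of 63290 regions in all. The Aspn region held it at 2 places. The MEF2 consensus was in none of the 44 and in 1.11% of all. In the RefSeq table TATAAA was in the promoters of Aspn and Ogn among the 7 matched genes, and in 13.6% of 32851 promoters. In both genes the matches lay nearer to the upstream end of the promoter window than to the start. A match of letters is a description and shows no binding.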

How the data were processed

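The authors aligned RNA-seq reads with HISAT2 2.1.0 and ran StringTie 1.3.5 (mouse; the rat file headers name another release), per the submitters' notes and the file headers; the mouse build was mm10 (GENCODE vM21) and the rat build rn6 (Ensembl). The deposited files give, per transcript, FPKM and TPM as normalized by the authors and coverage, the mean depth per base, as other values in text. ATAC-seq reads were trimmed with cutadapt, aligned with Bowtie2 and freed of duplicates with Picard by the authors, who then ran MACS2 on each library. The deposited lists hold a score, a ratio of signal to background at the summit (fold enrichment), and −log10 p and −log10 q of the authors' run. The 6 HiChIP libraries were not analysed here.

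Gene FPKM was the sum over transcripts. Genes at 1 FPKM or more in at least 2 mouse or 3 rat libraries (13979 and 13625) were compared as log2(FPKM + 1) with limma 3.58.1 in R 4.3.3 with a trend, two-sided, all 8 mouse libraries in 1 fit and Benjamini-Hochberg adjustment over all tested genes. The authors tested counts with edgeR, which these files do not allow directly. The method was tested on simulated data. Peaks were merged with bedtools 2.31.1 and regions with peaks in at least 2 libraries kept. Distances run from the middle of a region to the nearest GENCODE start. Exact permutation tests used all splits.

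In rat, samples of the same replicate number deviated together from the group means (r = 0.22, 0.19 and 0.35 over genes). Between numbers 1 and 2 the values were 0.09 and 0.17, and between number 3 and the others -0.27 to -0.20. Number 3 was thus set apart, while numbers 1 and 2 were hardly told from each other. The numbers were taken to pair samples, and the block values are given where they bear on a gene. In mouse the correlations were -0.10 to 0.17, and the numbers were not taken to pair samples.

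Named genes are the 9 members, up to 4 called genes with the largest change per list for P7 against E18.5 and TSA against DMSO, the 5 genes most like Dcn and Vcan, and neighbours of the members. Xylt1, Xylt2, Fbln1, Adamts1, Acan, Hspg2, Tgfb1 and Tgfb2, which were not called, were chosen after their values were seen. The members and lists were chosen with earlier results of these data known.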

Additional observations from a re-analysis of the deposited data

How the results depend on the processing

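The number of the 9 genes called against E18.5, both directions together, stayed within 1.5 times its value under every alternative run, but the 4 that rose to P1 became 2 without a filter on low values and 3 with median-of-ratios scaling. Prelp at P1 was called with a pseudocount of 0.1 (1.06, limma adjusted p = 0.024), with TPM (1.11, 0.011) and with limma-voom (1.16, 0.035). Without the filter Vcan was not called at P1, P3 or P7 (limma adjusted p = 0.14, 0.17 and 0.15), nor Lum at P1 (limma adjusted p = 0.058) or Ogn at P7 (limma adjusted p = 0.065), and with TPM Fmod at P7 stood at -0.96, under the fold limit. Without that filter 1 gene was called from P1 to P7 and 0 from P3 to P7, and leaving out 1 library at a time gave 0 to 3 from P3 to P7. Without the rat libraries numbered 3, 1 gene was called between TSA and DMSO. With the replicate number as a block the rat fit called none of the genes, with a limma adjusted p of 0.068 for Fmod, so the pairing changed no call of theirs.

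Directions that turned when 1 library was left out belong to changes that were not called. The log2 fold change of Ogn from E18.5 to P1 ran from -0.77 to 0.029. From P1 to P7 Vcan ran from -0.79 to 0.39, and from P3 to P7 from -0.21 to 0.26. From P1 to P3 Fmod ran from -0.10 to 0.19, Ogn from -0.57 to 0.23 and Vcan from -0.81 to 0.37. Between TSA and DMSO Dcn ran from -0.057 to 0.47, Lum from -0.23 to 0.30 and Vcan from -0.21 to 0.094.

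Peak counts changed with the number of peaks kept. With 13149 top peaks per list, 1 gene had a promoter peak in both libraries at P3 and 1 at P7, 70 peaks lay within 50 kb, and 1, 3 and 0 regions were gained at P1, P3 and P7, with 1 lost at P3. With the upper 50% of each list there were 2 genes at P3, 1 at P7, 99 peaks, and 5, 12 and 4 regions gained. RefSeq starts gave 0 genes at P1, and a distance of 20 kb gave 96 peaks. Leaving out 1 library gave 3 to 7 regions gained at P1 and 12 to 20 at P7, and 0 to 1 lost at P1, 0 to 1 at P3 and 0 to 2 at P7. The cause was not tested. The read depth of the ATAC-seq libraries is unknown from their peak lists, and 2 libraries per time point limit the precision of every mouse value.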
